A study of Rattus norvegicus with 16 samples.

Results

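Iron transport and storage was followed through 10 genes in rat liver and bone marrow. Hamp, Bmp6, Hfe and Tfr2 belong to the control of iron release, Tf, Tfrc and Slc11a2 to its transport and uptake, Slc40a1 to its export, and Fth1 and Ftl1 to its storage. The genes were taken by name from the deposited count table. The 10 names matched 11 of its 32623 gene records, since Slc40a1 is named on 2 records, one of which had 0 counts in every library. The rats were female Big Blue rats (spelled Blig Blue in some labels), a strain transgenic for a vector with the cII and lacI reporter genes, and both the NDEA and the control rats carried it. They were 6 weeks old on arrival and were gavaged with 10 mg/kg/day of NDEA (N-nitrosodiethylamine, a nitrosamine activated in liver to a DNA-alkylating agent) or with 0 mg/kg/day (control) for 28 days, and were killed 3 days later. Liver NDEA, liver control, marrow NDEA and marrow control held 4 libraries each, 16 in all. The labels do not say whether a liver and a marrow library with the same number came from 1 rat, nor which rats shared a cage.

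Hepcidin, the product of Hamp, is a peptide hormone made by hepatocytes that binds ferroportin, the iron exporter encoded by Slc40a1, and causes its degradation, so that less iron reaches plasma. Hepatocytes set Hamp from BMP6, a ligand made by liver endothelial cells, read with the co-receptor hemojuvelin (Hjv), and from the iron load of plasma transferrin, read with HFE and transferrin receptor 2; the protease encoded by Tmprss6 cleaves hemojuvelin and lowers Hamp. Erythroid precursors in marrow are the main users of transferrin iron, which enters through transferrin receptor 1 (Tfrc), leaves the endosome through DMT1 (Slc11a2) and goes into heme. Ferritin, built of heavy (Fth1) and light (Ftl1) chains, stores iron in both tissues.

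The measure was the number of 3' end reads per gene, given below as CPM, a gene's reads per 1e6 scaled reads of the genes tested in its tissue. Liver libraries held 5000844 to 6863592 reads and marrow libraries 2162182 to 5705705 reads, with marrow control 1 the shallowest and marrow NDEA 3 and 4 the poorest in detected genes (10144 and 9101). The tissue markers stood on the side of their labels. The 13 matched hepatocyte markers summed to 104000 to 137000 CPM in liver and to 14.1 CPM or less in marrow, and 24 matched erythroid markers to 182000 to 288000 CPM in marrow and 1450 to 5190 CPM in liver. Gata1, an erythroid transcription factor, and Col1a2, a collagen, were nevertheless listed at 0 in all 16 libraries, so a count near 0 in this table is no measure of absence. P-values of the limma-voom tests set a difference between groups against the spread of libraries within groups, with 4 libraries a group. Tests across the tissues treated liver and marrow libraries as independent, since the labels do not say which came from 1 rat.

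The record named Ftl1 held few reads, and its neighbours were not those of Ftl1 in RefSeq. It held 13 reads in liver NDEA, 13 in liver control, 10 in marrow NDEA and 13 in marrow control, each summed over 4 libraries (ENSRNOG00000031506, chromosome 5, position 152325871; all positions are those of the deposited table, whose build is not given in the sources used here). Its 10 nearest named neighbours were 10 of the 10 neighbours of LOC100360087 in RefSeq (assembly GRCr8, used here for gene order), among them Hmgn2, Dhdds and Lin28a, and none was a neighbour of RefSeq Ftl1. The record named LOC100360087 (ENSRNOG00000020843, chromosome 1, position 101448346) shared 10 of 10 neighbours with RefSeq Ftl1, among them Bax, Gys1 and Ruvbl2, and held 5624 reads in liver NDEA and 4057 in liver control. Values of LOC100360087 are therefore given beside the members, but it is counted with neither the members nor the other iron genes. Ferritin genes have near-identical copies in the rat genome, so reads of Fth1, Ftl1 and LOC100360087 could have been split or lost in the counting.

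Before their expression, the upstream sequences of Hamp, Tfr2 and Hjv are shown, for the hormone gene and for genes of its regulation that fell in NDEA liver. Each line gives the 250 bases before the gene's start, read 5' to 3' on the gene's strand, from RefSeq (GRCr8). These are chr1:95300272-95300521 on the minus strand for Hamp, chr12:24761369-24761618 on the minus strand for Tfr2 and chr2:186754551-186754800 on the plus strand for Hjv. Capitals mark GGCGCC, the core of BMP-responsive elements, and TTCNNNGAA, the form bound by STAT3 downstream of interleukin-6.
Hamp: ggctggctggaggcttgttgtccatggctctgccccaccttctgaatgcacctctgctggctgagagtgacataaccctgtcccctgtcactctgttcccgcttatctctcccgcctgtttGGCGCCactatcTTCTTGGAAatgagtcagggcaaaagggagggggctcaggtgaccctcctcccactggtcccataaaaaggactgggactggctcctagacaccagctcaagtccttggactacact
Tfr2: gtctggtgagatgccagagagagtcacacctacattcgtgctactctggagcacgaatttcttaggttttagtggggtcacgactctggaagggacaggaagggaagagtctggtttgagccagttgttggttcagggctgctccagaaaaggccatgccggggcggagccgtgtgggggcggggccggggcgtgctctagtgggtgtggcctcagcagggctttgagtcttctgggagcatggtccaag
Hjv: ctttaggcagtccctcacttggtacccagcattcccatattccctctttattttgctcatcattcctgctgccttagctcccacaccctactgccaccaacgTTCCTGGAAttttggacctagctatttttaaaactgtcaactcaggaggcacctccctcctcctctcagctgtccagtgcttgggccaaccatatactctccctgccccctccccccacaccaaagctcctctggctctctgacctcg
The Hamp window held 1 GGCGCC, with its first base at position -129 from the start, and 1 TTCNNNGAA, as TTCTTGGAA at position -117. The Hjv window held 1 TTCNNNGAA, as TTCCTGGAA at position -148, and the Tfr2 window held neither. Among the 7 members with a promoter in the table (Hamp, Tf, Tfrc, Tfr2, Slc40a1, Slc11a2 and Bmp6; windows of 250 bases before to 50 after the start, both strands), Tfrc held the only other GGCGCC, at position -118, and no other window held TTCNNNGAA. TGACNNNGC, the letters that NRF2 and its partners share in antioxidant elements (both strands), was in 0 of these windows. For CAGTGN, the loop of iron-responsive elements, searched on the sense strand, the members' windows also held 0 matches, and the Hjv window held 1, CAGTGC at position -74, left in lower case above. Such loops form in the RNA, of which the windows held at most 50 bases, and position -74 lies before the start. The search could therefore not tell whether a gene has an iron-responsive element. No pair of these motifs overlapped in the windows shown. GGCGCC was in 11% of 33469 promoter windows, TTCNNNGAA in 8.87%, TGACNNNGC in 12.1% and CAGTGN in 34.9%, so a match of any of them is a common event and shows no binding.

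Without NDEA, the uptake genes Tfrc and Slc11a2 stood higher in marrow and the other tested members in liver. The comparison of marrow control with liver control gives the level of each member where it is used, and 7 of the 10 members had enough reads to be tested. All 7 were called (limma-voom, adjusted p under 0.05): Tfrc and Slc11a2, of iron uptake, were higher in marrow, and Hamp, Tf, Tfr2, Fth1 and Hfe were lower. The same test called 66.1% of all 10071 genes, 33.4% higher and 32.8% lower in marrow, so the count itself says little about iron genes. Tissues were scaled together for the fitted log2 fold changes. They were scaled apart for the CPM values and for the bounds set against a floor of reads.

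**Figure D1:**
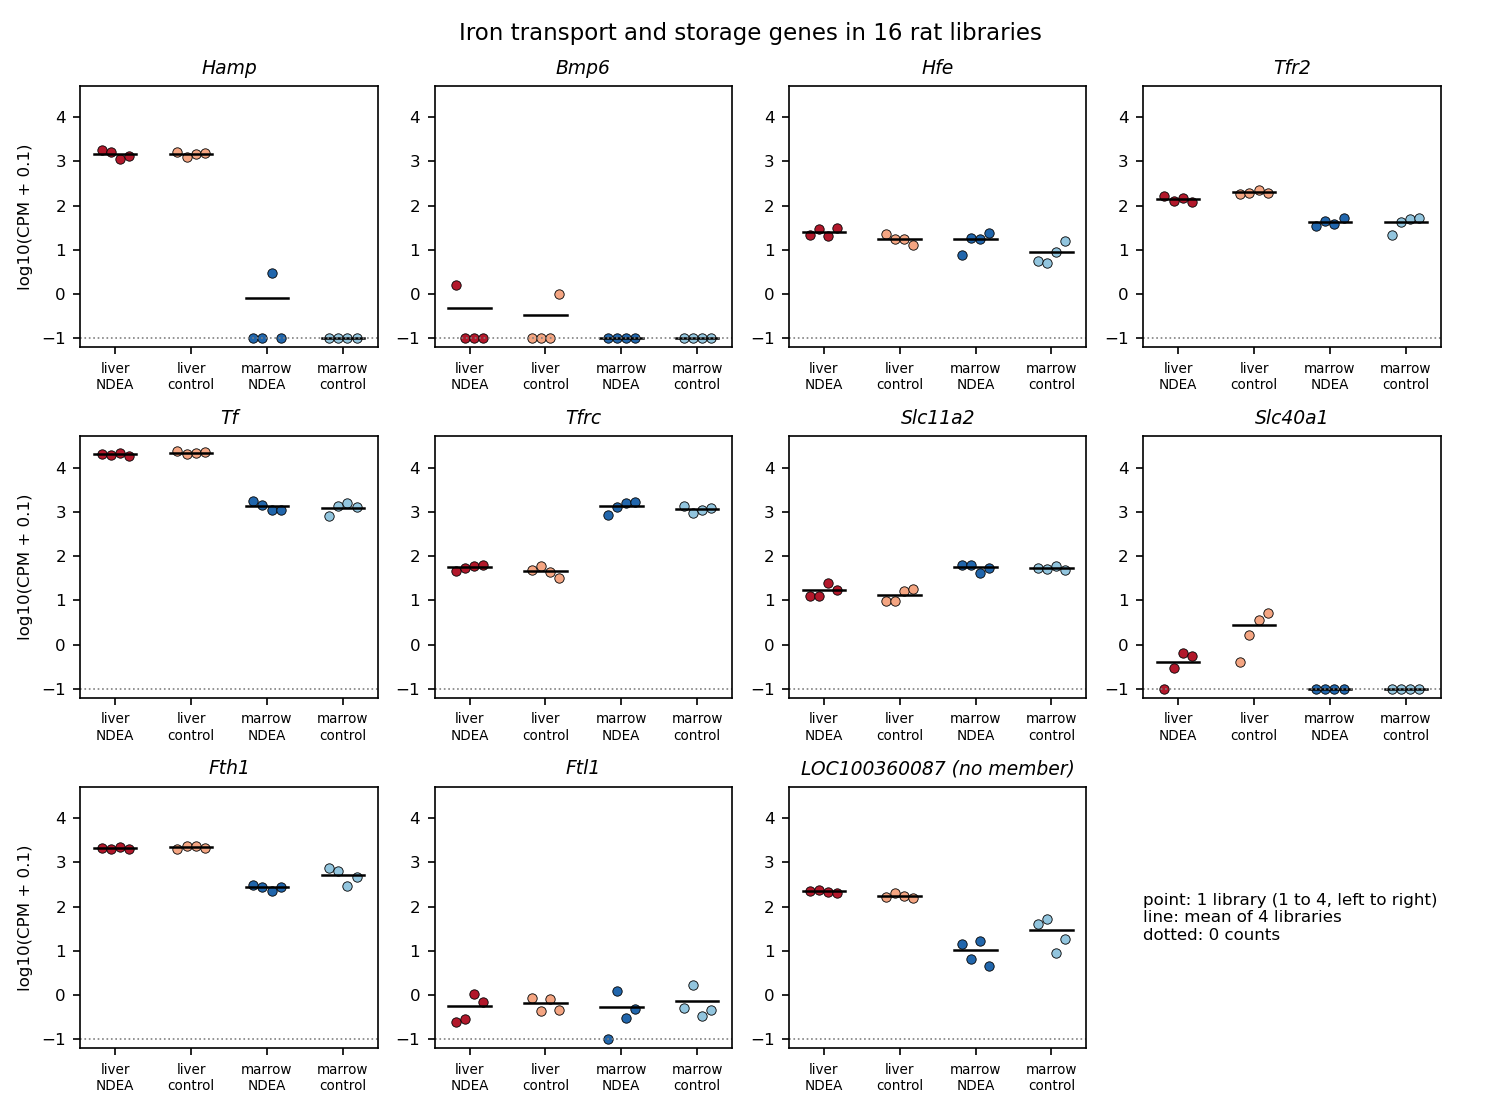
Level of each member and of LOC100360087 in the 16 libraries, as log10(CPM + 0.1), by group; points are libraries, the line is the log10 of the group's mean CPM + 0.1, and the dotted line marks 0 counts. Hamp stands at 1120 CPM or more in every liver library and at 0 counts in 7 of the 8 marrow libraries. Tfrc is higher in every marrow than in every liver library. The records named Ftl1, Bmp6 and Slc40a1 lie near the floor.

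Tfrc (ENSRNOG00000001766, chromosome 11, position 71397383), transferrin receptor 1, averaged 1150 ± 167 CPM in marrow control and 45.7 ± 11 CPM in liver control (SD over 4 libraries each; the log2 fold change was 4.40, SE 0.21, at a limma-voom adjusted p of 1.52e-10). Slc11a2 (ENSRNOG00000019550, chromosome 7, position 142025815), the endosomal iron transporter, averaged 53.3 ± 4.17 CPM in marrow control and 13.3 ± 4.43 CPM in liver control (log2 fold change 1.80, adjusted p = 5.28e-05). The groups of both genes lay apart, as did those of 59.7% of all tested genes. Heme synthesis stood with them: of its 14 genes, all tested, 12 were higher and 2 lower in marrow control (median log2 fold change 2.10, against 0.02 over all tested genes). Alas2, the erythroid enzyme of the first step, averaged 649 ± 144 CPM in marrow control and 4.92 ± 3.6 CPM in liver control. Alas1, its counterpart in other tissues, averaged 99.4 ± 38.7 CPM in marrow control and 369 ± 46 CPM in liver control (log2 fold change -2.17, adjusted p = 1.03e-06). Slc25a37 (mitoferrin 1), which carries iron into erythroid mitochondria, averaged 258 ± 110 CPM in marrow control and 2.6 ± 1.06 CPM in liver control.

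Hamp (ENSRNOG00000021029, chromosome 1, position 89368021) had 0 reads in the 4 marrow control libraries and 34151 in the 4 liver control libraries. Against a floor of 3 reads over the marrow control group it was at least 8770-fold lower in marrow; the floor covers counting error only. Tf (ENSRNOG00000030625, chromosome 8, position 111673547), the gene of plasma transferrin, averaged 1250 ± 331 CPM in marrow control and 21800 ± 1250 CPM in liver control (log2 fold change -4.42, adjusted p = 8.24e-11). Alb, the gene of serum albumin and another hepatocyte product, had 0.483 CPM or less in every marrow library, against 72000 CPM or more in every liver control library. Tfr2 (ENSRNOG00000001407, chromosome 12, position 22177382), expressed in hepatocytes and erythroid precursors, averaged 41.7 ± 14 CPM in marrow control and 199 ± 16.8 CPM in liver control (log2 fold change -2.50, adjusted p = 2.82e-07). Fth1 (ENSRNOG00000022619, chromosome 1, position 226030938), the ferritin heavy chain, averaged 528 ± 198 CPM in marrow control and 2170 ± 145 CPM in liver control (log2 fold change -2.40, adjusted p = 2.27e-07). Hfe (ENSRNOG00000016967, chromosome 17, position 43661222) averaged 8.7 ± 4.97 CPM in marrow control and 17.6 ± 4.05 CPM in liver control, and these groups overlapped (log2 fold change -1.33, adjusted p = 0.0125). Its call was lost in 3 of 18 alternative settings, among them without marrow control 2 (adjusted p = 0.0741; range over the settings 0.00644 to 0.186).

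**Figure D2:**
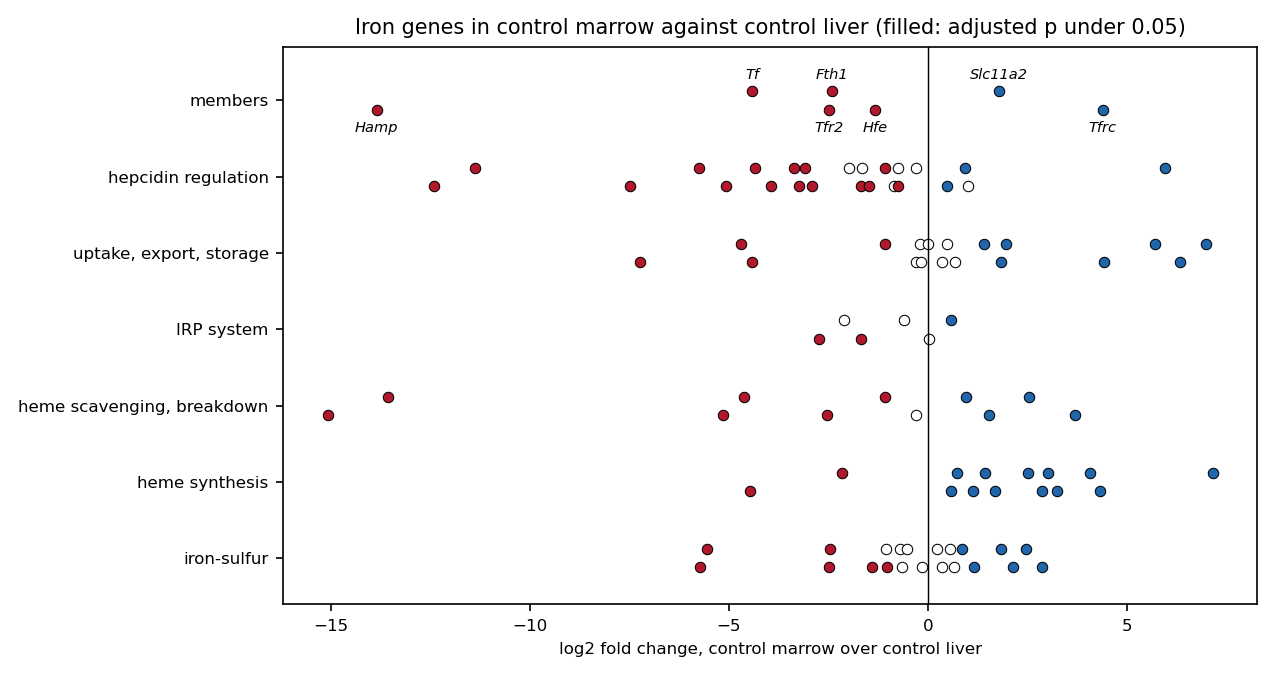
Log2 fold change of marrow control over liver control for each tested gene, by list; filled points passed an adjusted p of 0.05, blue where higher and red where lower in marrow, and members are named. Tfrc and Slc11a2 stand right of 0 with 12 of 14 heme synthesis genes, and Hamp stands far left at a fitted value that depends on the prior count, since marrow control held 0 reads.

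The records named for the remaining 3 members, Slc40a1, Bmp6 and Ftl1, held few reads. The Ftl1 record had the RefSeq neighbours of LOC100360087, and the record with those of RefSeq Ftl1 held 4057 reads in liver control. The low count of the record named Ftl1 is therefore no measure of the ferritin light chain. Slc40a1 (ENSRNOG00000003872, chromosome 9, position 52894365), ferroportin, had 0 reads in all 8 marrow libraries, although Cd163, a marker of the macrophages that export iron, averaged 269 CPM in marrow control. In liver it had 0, 1, 4 and 3 reads in NDEA and 2, 9, 19 and 28 reads in control (libraries 1 to 4 of each group). The liver groups overlapped at these low counts (means of 0.301 ± 0.254 CPM in NDEA and 2.62 ± 2.12 CPM in control, exact two-sided permutation test p = 0.0857, where the design allows no p under 0.0286). Kupffer cell markers, for the liver macrophages that express ferroportin, summed to 884 to 1050 CPM in NDEA and 870 to 975 CPM in control. Of 13 tested, 2 were called in opposite directions, Marco higher (log2 fold change 0.64) and Vsig4 lower (-0.94), so the sum is no measure of each marker. Bmp6 (ENSRNOG00000013717, chromosome 17, position 26955142) had 10 reads in liver NDEA, all in library 1, and 5 in liver control, all in library 4, and 0 in marrow. Neither Slc40a1 nor Bmp6 showed a detectable difference between NDEA and control liver in these counts. Between control tissues, Slc40a1 had 0 reads in marrow control and 58 in liver control. Against a floor of 3 reads over the group, which covers counting error only, Slc40a1 was at least 14.9-fold lower in marrow. With no filter on low counts the limma-voom test called it there (adjusted p = 0.00071). Since a count near 0 is no measure of absence in these data, the values do not show how ferroportin RNA differs between the tissues.

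In NDEA liver, Hamp did not differ detectably from control, while Tfr2, one of the sensors upstream of it, fell. Of the 7 members tested in liver, Tfr2 was the only one called, against 6.61% of all 9668 genes tested (277 or 2.87% higher and 362 or 3.74% lower). The members' median log2 fold change was -0.03, and that of all tested genes 0.01.

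Tfr2 had 168, 127, 146 and 122 CPM in the 4 NDEA livers and 184, 192, 223 and 196 CPM in the 4 control livers. Every NDEA library lay below every control library; the groups of 12.5% of all tested genes did not overlap in one direction or the other. The means were 141 ± 20.9 CPM in NDEA and 199 ± 16.8 CPM in control (log2 fold change -0.50 with SE 0.13, 95% interval -0.77 to -0.22, limma-voom adjusted p = 0.0245). The estimate was negative in all 18 alternative settings, from -0.58 to -0.38, but the call was lost in 6 of them (adjusted p over the 18 from 0.0132 to 0.443). It was lost without control 3 (0.1), without NDEA 2 (0.0831) and without NDEA 4 (0.0982), with library totals alone (0.0891), with all 16 libraries in one fit (0.112) and once the mitochondrial share entered as a covariate (0.443). In bulk tissue, fewer cells of a type and less RNA per cell cannot be told apart. Hepatocyte markers summed to 104000 to 125000 CPM in NDEA and 110000 to 137000 CPM in control, a sum made up mostly of Alb, and 8 of 13 were called, 3 higher and 5 lower (61.5%). The lower ones included Hnf4a, a transcription factor of hepatocytes (207 CPM in NDEA and 349 CPM in control, log2 fold change -0.75), Tat (-0.60) and Apoh (-0.50), and the higher ones Apoa1 (0.74) and Ttr (0.43). In the same livers, 9 of 13 cycling cell markers rose (summed, 273 to 455 CPM in NDEA and 12.4 to 79.5 CPM in control). Stellate cell markers summed to 474 to 574 CPM in NDEA and 258 to 372 CPM in control. The part of these shifts in the falls of Tfr2 and of the other iron genes below was not tested.

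Hamp had 1830, 1640, 1120 and 1310 CPM in NDEA livers and 1650, 1240, 1490 and 1510 CPM in control livers. The NDEA libraries were the highest and the lowest of the 8 and enclosed the control group. The means were 1470 ± 320 CPM in NDEA and 1470 ± 170 CPM in control (log2 fold change -0.03, 95% interval -0.28 to 0.23, adjusted p = 0.943). Hfe, the partner of the transferrin receptors in iron sensing, had 21.7, 29.4, 20.4 and 31.3 CPM in NDEA and 22.8, 17.3, 17.5 and 12.9 CPM in control. The groups overlapped through control 1 (log2 fold change 0.52, 95% interval -0.08 to 1.11, adjusted p = 0.355).

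Tf, the carrier, had 20500, 19200, 21100 and 18300 CPM in NDEA and 23300, 20600, 20900 and 22300 CPM in control, with overlap of NDEA 3 and control 2 and 3 (log2 fold change -0.14, 95% interval -0.27 to -0.01, adjusted p = 0.21). Tfrc averaged 55.3 ± 6.55 CPM in NDEA and 45.7 ± 11 CPM in control (log2 fold change 0.30, 95% interval -0.13 to 0.72, adjusted p = 0.475). Slc11a2 averaged 16.9 ± 5.79 CPM in NDEA and 13.3 ± 4.43 CPM in control (95% interval of the log2 fold change -0.34 to 1.12). Fth1 had 2130, 1960, 2190 and 1980 CPM in NDEA and 2030, 2280, 2320 and 2070 CPM in control. Its groups overlapped, and the 95% interval of the log2 fold change, -0.24 to 0.10, was the second narrowest of the members after that of Tf. LOC100360087 averaged 221 ± 16.4 CPM in NDEA and 176 ± 22.2 CPM in control (log2 fold change 0.33, 95% interval 0.07 to 0.59, adjusted p = 0.136); it was called with library totals alone (adjusted p = 0.032; range over 18 settings 0.032 to 0.861).

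**Figure D3:**
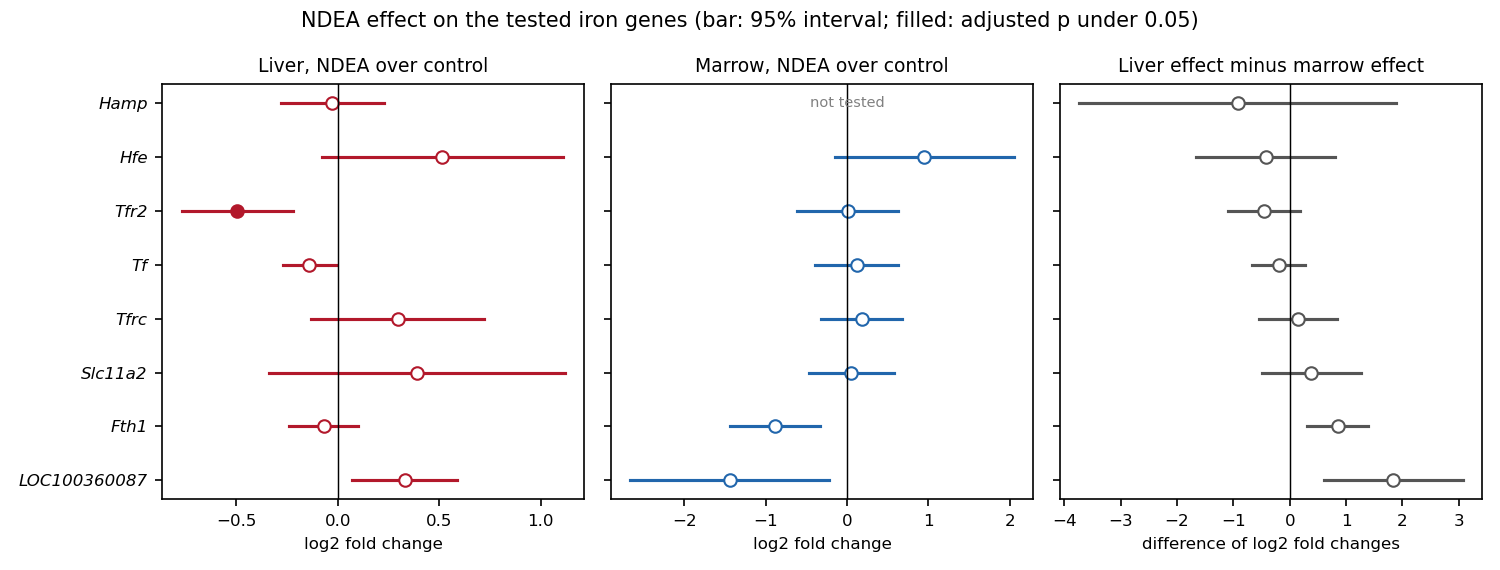
NDEA effect on the tested members and on LOC100360087 in liver, in marrow and as liver effect minus marrow effect, with 95% intervals; filled points passed an adjusted p of 0.05, and the x axes differ between panels. Tfr2 in liver is the only filled point, Hamp in liver is centred near 0, and Fth1 and LOC100360087 lie left of 0 in marrow.

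Among the other genes of iron handling in NDEA liver, those that passed the test were lower. Of 91 tested genes in 6 lists, 11 fell and 0 rose (12.1%, against 6.61% of all genes), while 32 estimates lay above and 59 below 0. The median log2 fold change was -0.09 (0.01 over all tested genes). Regulators of hepcidin gave 5 of these (5 of 23 tested fell), heme scavenging and breakdown 3 of 11, and the lists of uptake, export and storage (16 tested), of iron-regulatory proteins (6) and of iron-sulfur proteins (21) gave 1 each. None of the 14 heme synthesis genes was called; 4 had an unadjusted p under 0.05, as had 18.7% of all genes.

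Among the regulators of hepcidin, Hjv and Tmprss6, a co-receptor that raises Hamp and the protease that opposes it, fell by similar amounts. Hjv had 75, 61.5, 93.8 and 78.2 CPM in NDEA and 127, 104, 157 and 147 CPM in control (log2 fold change -0.77 with SE 0.17, limma-voom adjusted p = 0.0045). Tmprss6 had 185, 121, 164 and 172 CPM in NDEA and 271, 204, 312 and 297 CPM in control (log2 fold change -0.74, SE 0.15, adjusted p = 0.00237). In both genes all NDEA livers lay below all control livers. The groups of 12.5% of all tested genes did not overlap in one direction or the other. Furin, a protease that matures hepcidin and releases soluble hemojuvelin, averaged 175 ± 17.4 CPM in NDEA and 256 ± 39.7 CPM in control (log2 fold change -0.54, adjusted p = 0.0117). Fgl1, a secreted liver protein that lowers Hamp in mice, had 214, 213, 192 and 195 CPM in NDEA and 762, 262, 764 and 578 CPM in control. Control 2 stood close to the NDEA group, but the groups did not overlap (log2 fold change -1.43, adjusted p = 0.00024). Id2, a regulator of transcription that BMP signals induce, averaged 79.4 ± 23.6 CPM in NDEA and 124 ± 29.2 CPM in control with overlapping groups (log2 fold change -0.64, adjusted p = 0.0486).

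Beside Id2, the BMP target genes Id1 and Smad7 did not pass the test. Id1, a target that follows iron loading in mouse liver, averaged 21.8 ± 2.05 CPM in NDEA and 10.7 ± 3.03 CPM in control, with groups that did not overlap (log2 fold change 1.04, adjusted p = 0.0611). Smad7, an inhibitor induced by the same pathway, averaged 15.1 ± 0.856 CPM in NDEA and 16.3 ± 4.14 CPM in control (95% interval of the log2 fold change -0.70 to 0.58).

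**Figure D4:**
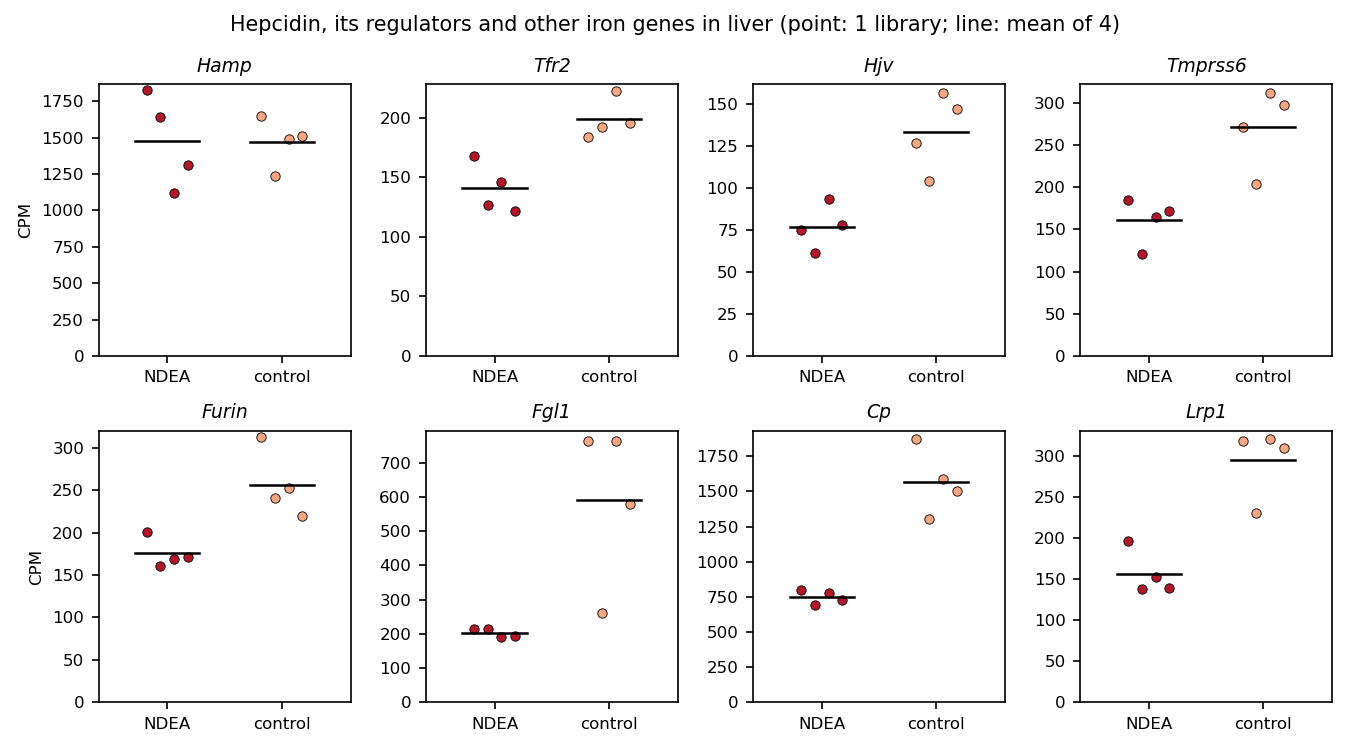
CPM of Hamp, Tfr2, Hjv, Tmprss6, Furin, Fgl1, Cp and Lrp1 in the liver libraries; points are libraries, lines are means of 4, and each y axis starts at 0. Hamp overlaps between the groups, while in the other 7 genes, all of them called lower, all NDEA livers lie below all control livers. Id2, called lower with overlapping groups, and Id1, higher in NDEA without overlap, are not shown. The groups of 12.5% of all tested genes did not overlap in one direction or the other.

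Outside the regulators, Cp, the plasma ferroxidase ceruloplasmin, gave the smallest p of the iron genes. It had 796, 693, 778 and 726 CPM in NDEA and 1870, 1300, 1590 and 1500 CPM in control (log2 fold change -1.05 with SE 0.10, limma-voom adjusted p = 2.51e-07). Its fall passed the test in all 18 alternative settings, with log2 fold changes from -1.14 to -0.73. Lrp1, the receptor that takes up heme bound to hemopexin, averaged 156 ± 26.9 CPM in NDEA and 295 ± 42.6 CPM in control (log2 fold change -0.91, adjusted p = 0.000133). Ambp, the precursor of the heme-binding alpha-1-microglobulin, averaged 3310 ± 333 CPM in NDEA and 4570 ± 407 CPM in control (log2 fold change -0.47, adjusted p = 0.000736). Nearer the threshold were Hmox2, the constitutive heme oxygenase (log2 fold change -0.57, adjusted p = 0.0441), and Aco1, the iron-regulatory protein that is also cytosolic aconitase (-0.46, adjusted p = 0.0435). Fdx1, a mitochondrial ferredoxin (-0.47, adjusted p = 0.0359), was also near it. With a library left out, Aco1 was called only without control 2, Hmox2 only without NDEA 1, Id2 only without control 1, control 2 or NDEA 4, and Fdx1 only without control 1, control 3 or NDEA 4.

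Other genes of these lists did not pass the test in liver. Hp and Hpx, the plasma carriers of hemoglobin and heme, averaged 2190 ± 207 CPM (Hp) and 4830 ± 172 CPM (Hpx) in NDEA, and 2240 ± 105 CPM (Hp) and 5020 ± 678 CPM (Hpx) in control; the 95% intervals of the log2 fold change were -0.21 to 0.14 for Hp and -0.22 to 0.12 for Hpx. Hmox1, the inducible heme oxygenase, averaged 85.6 ± 17.3 CPM in NDEA and 60.2 ± 25.9 CPM in control (adjusted p = 0.17). Slc39a14, an importer of free iron, averaged 52.8 ± 11.1 CPM in NDEA and 76.5 ± 12.6 CPM in control (adjusted p = 0.106). Alas1 averaged 461 ± 84.7 CPM in NDEA and 369 ± 46 CPM in control (adjusted p = 0.192), and Alas2 4.56 ± 2.76 CPM in NDEA and 4.92 ± 3.6 CPM in control. Ncoa4, which delivers ferritin to lysosomes, Steap3, an endosomal ferrireductase, Ireb2, the second iron-regulatory protein, and Slc25a37 had 95% intervals that included 0.

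The count of falling genes changed with the scaling, with the mitochondrial share as a covariate and with single libraries left out. With library totals alone, which move the median of all genes to 0.12 on the log2 scale, 7 of the 91 fell and 4 rose (Id1, Alas1, Cpox and Tspo), and over all genes 390 rose and 239 fell. Mitochondrially encoded genes took 20.1% to 22.4% of reads in NDEA livers and 16.2% to 20.6% in control livers. Only control 2 lay inside the NDEA range, so share and treatment were largely confounded and a fit with both cannot tell them apart. With that share as a covariate, 2 of the 91 genes were called, Cp (log2 fold change -0.73) and Fdx1 (-0.76), both lower, and 237 of all genes. The log2 fold change of Fgl1 was then -0.50 (adjusted p = 0.337; range over 18 settings 3.35e-10 to 0.337), that of Ambp -0.25 (0.284), and those of Hjv, Tmprss6, Lrp1 and Furin -0.49, -0.47, -0.58 and -0.35, in that order (adjusted p from 0.149 to 0.523). Without control 4, NDEA 2 or NDEA 3, left out one at a time, 7 fell.

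In NDEA marrow no member was called, and Fth1 had the smallest p. None of the 6 members tested in marrow passed, nor did any of the 9239 genes tested (0%); limma-trend also called 0. At an unadjusted p under 0.05 stood 1 member, Fth1, and 14.5% of all genes.

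Fth1 had 301, 275, 224 and 279 CPM in NDEA marrow and 737, 629, 285 and 462 CPM in control marrow. Control 3 stood within the NDEA range and the other 3 controls above it. The means were 270 ± 32.4 CPM in NDEA and 528 ± 198 CPM in control (log2 fold change -0.88, 95% interval -1.44 to -0.33, limma-voom adjusted p = 0.247; median of all tested genes -0.10). Without control 3 the log2 fold change was -1.16 and the adjusted p = 0.0141 (range over 19 settings 0.0141 to 1), and 318 of all 9675 genes then tested were called. LOC100360087 had 14.4, 6.54, 16.2 and 4.55 CPM in NDEA and 39.8, 53.1, 8.94 and 18.2 CPM in control, with control 3 again the lowest of its group and inside the NDEA range (log2 fold change -1.44, 95% interval -2.66 to -0.22, adjusted p = 0.284; adjusted p = 0.0473 without control 3, range over 19 settings 0.0388 to 1). Alas2, the erythroid heme enzyme, likewise had its lowest control in control 3, level with NDEA 2. It had 329, 458, 332 and 365 CPM in NDEA and 647, 683, 458 and 806 CPM in control (log2 fold change -0.79, adjusted p = 0.247).

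Marrow control 3 differed from its group in other measures. Its skeletal muscle markers summed to 608 CPM, against 180 to 260 CPM in the other controls and 63 to 83.3 CPM in NDEA, and its mitochondrial share was 13.0% of reads, the highest of the controls. Erythroid markers summed to 200000, 259000, 288000 and 263000 CPM in controls 1 to 4 and to 182000 to 232000 CPM in NDEA. Control 3 was the highest, but control 1 lay furthest from the other controls. That sum was mostly alpha globin: Hba-a1 averaged 164000 CPM and Hba-a2 77300 CPM in marrow control, where the mean sum was 253000 CPM. Of 21 tested erythroid markers, 0 were called. The part of these differences in the ferritin values was not tested.

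**Figure D5:**
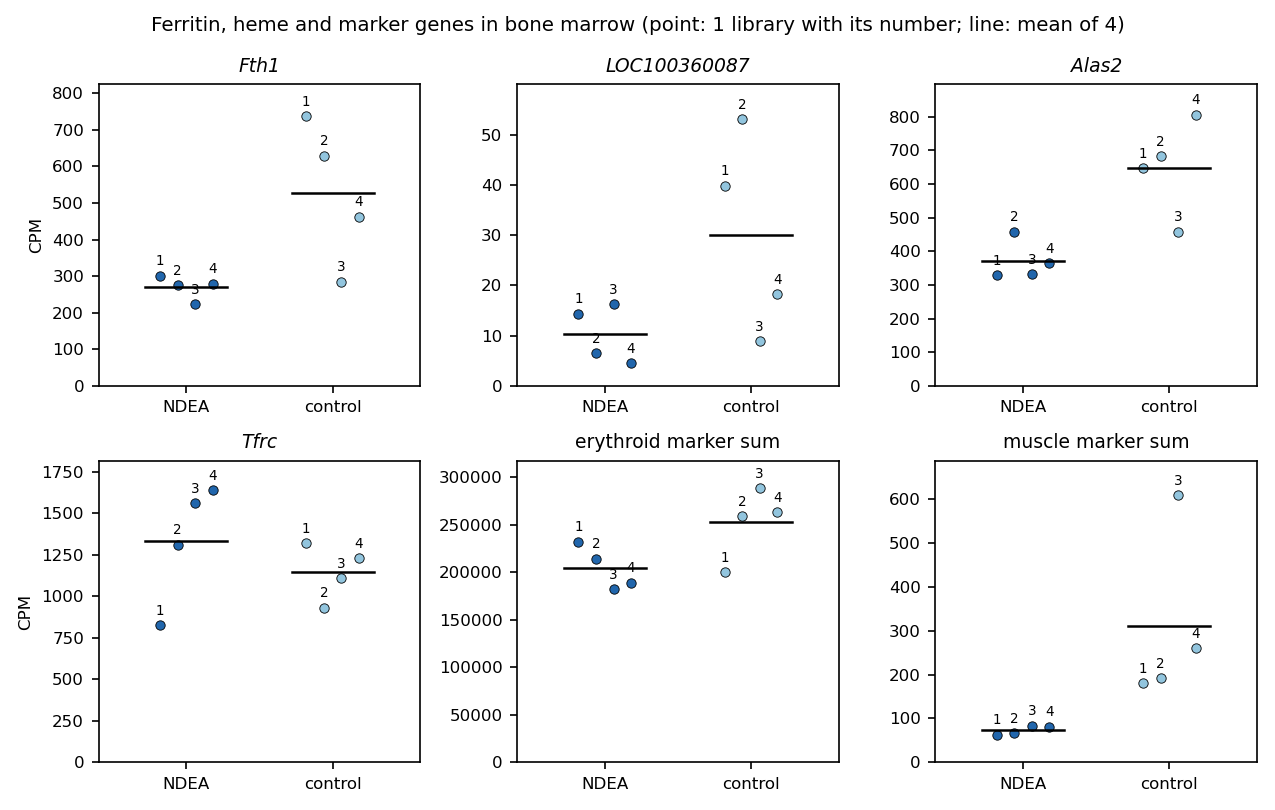
CPM of Fth1, LOC100360087, Alas2 and Tfrc and summed CPM of erythroid and muscle markers in marrow; points are libraries with their numbers, lines are means of 4, and y axes start at 0. Control 3 is the lowest control for Fth1, LOC100360087 and Alas2 and the highest for both marker sums.

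The uptake genes of marrow did not differ detectably. Tfrc had 826, 1310, 1560 and 1640 CPM in NDEA and 1320, 932, 1110 and 1230 CPM in control. NDEA 1 was the lowest and NDEA 3 and 4, the libraries with the fewest detected genes, the highest of the 8 (means of 1330 ± 368 CPM in NDEA and 1150 ± 167 CPM in control; 95% interval of the log2 fold change -0.32 to 0.68). Slc11a2 averaged 55.7 ± 10.4 CPM in NDEA and 53.3 ± 4.17 CPM in control (95% interval -0.47 to 0.58). Tfr2 averaged 42.6 ± 7.22 CPM in NDEA and 41.7 ± 14 CPM in control (-0.61 to 0.63), and Tf 1340 ± 315 CPM in NDEA and 1250 ± 331 CPM in control (-0.39 to 0.63). Hfe had 7.65, 18.6, 17.5 and 24.5 CPM in NDEA and 5.45, 4.94, 8.7 and 15.7 CPM in control, with overlapping groups (log2 fold change 0.95, 95% interval -0.15 to 2.05, adjusted p = 0.401). Hamp had 14 reads in marrow NDEA 3 (2.91 CPM) and 0 in the other 7 marrow libraries.

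Of 85 other iron genes tested in marrow, 0 were called and 16 had an unadjusted p under 0.05, as had 14.5% of all genes. The median log2 fold change of the 85 genes was -0.08, against -0.10 over all genes. Without control 3, 5 of the other iron genes were called, where 318 of all 9675 genes then tested were. Heph, a ferroxidase, Vps35, a subunit of the retromer that sorts endosomal cargo, Blvrb, a biliverdin reductase, and Alas2 were lower. Ciapin1, of cytosolic iron-sulfur assembly, was higher. Leaving out any other single library gave no call among the other iron genes. Hmox1 averaged 873 ± 245 CPM in NDEA and 918 ± 278 CPM in control, and Slc25a37 366 ± 62 CPM in NDEA and 258 ± 110 CPM in control (adjusted p = 0.333). Hjv, Tmprss6 and Hpx had too few marrow reads for a test.

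The NDEA effect on the members was not shown to differ between liver and marrow. The treatment-by-tissue term called 0 of 7 members (limma-voom; limma-trend also 0) and 2.28% of all 11261 genes. Fth1, the single member with an unadjusted p under 0.05 (16.8% of all genes had one), had a liver effect above its marrow effect by 0.85 on the log2 scale (95% interval 0.31 to 1.39, adjusted p = 0.0929), where the median difference of all genes was 0.32. It passed without marrow control 3 (adjusted p = 0.00381), with sample quality weights (0.0472) and with mitochondrial share as a covariate (0.0227), and its range over 26 settings was 0.00381 to 0.338. LOC100360087 differed by 1.84 (95% interval 0.61 to 3.07, adjusted p = 0.112). For Tfr2, called in liver alone, the difference was -0.45 with a 95% interval of -1.09 to 0.19, so its effect was not shown to differ between the tissues. Of 95 other iron genes, Furin and Prnp were called (2.11%, close to the 2.28% of all genes). Furin differed by -0.97 (adjusted p = 0.0251): it fell in liver, and in marrow it averaged 602 ± 122 CPM in NDEA and 428 ± 62.1 CPM in control (adjusted p = 0.327). Prnp, the prion protein gene, differed by 3.40 (adjusted p = 0.0274) and was called in neither tissue alone. It averaged 17.7 ± 10.3 CPM in NDEA and 3.25 ± 2.97 CPM in control liver, and 39 ± 8.47 CPM in NDEA and 65.4 ± 12.7 CPM in control marrow. Both calls were lost without liver control 1, without liver control 3, and without marrow NDEA 3 and 4 together. The Furin call was also lost without liver NDEA 2, 3 or 4, marrow control 2 or marrow NDEA 3, each left out alone, and the Prnp call without liver control 4.

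As a description of which genes varied like Hamp in liver and Tfrc in marrow, their log2 CPM was correlated over the 8 libraries of the tissue with every tested gene of an average log2 CPM of at least 4. In liver, Hamp was closest to Slc16a7 (Pearson r = 0.956 over 8 libraries), Gng12 (0.933), Tbl1xr1 (0.922), B3gat3 (0.888) and Lyplal1 (0.88) among 4756 genes, and none of these is in the iron lists. In marrow, Tfrc was closest to Ckap2 (0.953), Cd24 (0.939), Med11 (0.936), Trim10 (0.916) and Tmem86b (0.914) among 4882 genes. These points share treatment group and depth, and the highest of so many correlations over 8 libraries are high by selection.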

How the data were processed

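The values were whole reads per gene, deposited by the authors as a raw count table; per the labels' protocols, a QuantSeq 3' kit was used, so counts do not scale with gene length. STAR and DESeq2 are named in the submitters' processing notes without versions; for the counter, build and annotation nothing is given in the sources used here. Of 32635 lines, 15567 were one quoted cell and 12 records were broken; after rejoining, 32623 records were read, with 0 mismatches in 16313 records that held the authors' group totals. Because of this damage the deposited columns were recorded as another unit than counts, and a negative binomial test was not used.

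In each tissue genes were kept at the CPM of 10 reads in the median library in 4 libraries, with 15 reads in all. TMM (trimmed means of M values) scaled the libraries, which were tested with limma-voom (limma 3.58.1, R 4.3.3; two-sided; Benjamini-Hochberg over all tested genes). Reported errors are SDs over libraries, and 95% intervals are limma's. The treatment-by-tissue term used all 16 libraries. The method was tested on simulated data. Alternatives were other scalings, filters and limma models, a replicate block, the mitochondrial share as a covariate, and leaving out libraries. All 10 members are named, with each other iron gene called in a tissue and 16 fixed ones; the members and the iron and marker lists were chosen with earlier results of these data known. Cpox, Tspo, Prnp, Heph, Vps35, Blvrb and Ciapin1 were named after their values were seen. The 34 unnamed columns were not used.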

Additional observations from a re-analysis of the deposited data

Results flagged for a closer look

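Dixon's ratio was taken over 66 groups of 4 libraries for the members, LOC100360087 and the called iron genes, and chance flags about 1 in 20 such groups. It marked 3 libraries, none of them in a member. Aco1 had 126 CPM in liver NDEA 4, above the other NDEA livers. Lrp1 had 231 CPM in liver control 2, below the other control livers, and 88.8 CPM in marrow NDEA 1, above the other NDEA marrows.

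Of 103 genes with a treatment-by-tissue test (members, other iron genes and LOC100360087), 2 were called, where 2.28% of all genes were. Of these 2, 0 were called without liver control 1 or without liver control 3. The liver effect minus the marrow effect was -0.97 for Furin (adjusted p = 0.0251) and 3.40 for Prnp (adjusted p = 0.0274) on the log2 scale.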

How the results depend on the processing

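The number of members called in liver (1, Tfr2) was 0 with library totals alone, 0 with the mitochondrial share as a covariate, 0 with all 16 libraries in one fit, and 0 to 1 with a library left out. Of the other iron genes in liver (11), the mitochondrial covariate left 2, one fit of all 16 libraries 6, and leaving out a library 7 to 11. In marrow, 1 member (Fth1) was called with the replicate block and 1 with all 16 libraries in one fit, against 0, and 0 to 1 with a library left out; of the other iron genes, the block called 2, the joint fit 1 and leaving out a library 0 to 5. For the tissue difference, 1 member was called with quality weights, 1 with the mitochondrial covariate and 0 to 1 with a library left out. Between control tissues 6 to 8 members were called in every setting, 8 with no filter on low counts, where Slc40a1 passed. Over all genes, calls in liver numbered 639, and 237 with the mitochondrial covariate. In marrow they numbered 0, and 251 with the replicate block, 69 in the joint fit, 318 without control 3, 3 with the mitochondrial covariate and 2 with no filter. For the tissue difference they numbered 257, 921 with the mitochondrial covariate, 88 without marrow NDEA 3 and 4, and 102 to 509 with a library left out. The replicate block raised the liver count of other iron genes to 16, 4 of them higher (Id1 among them, also called with library totals alone). The numbers are not stated to pair the rats: deviations of same-numbered NDEA and control libraries correlated at 0.061 or less, and 1 of 8 liver and 3 of 8 marrow libraries correlated best with their own number, so the block is given here alone. Causes were not tested. No called member changed direction in any setting run. The records named Slc40a1, Bmp6 and Ftl1 had too few reads in liver for the main test, and the cause was not tested. The record named Ftl1 had the RefSeq neighbours of LOC100360087.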
